A study of Mus musculus with 24 samples.

Results

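The changes that 3 brain-derived melanoma lines had in common, relative to the first-generation dormant line, were measured on 14 of the 24 single-colour arrays of the series. The arrays were chosen by line: 4 of B16F1-GFP-D (D), 4 of B16F1-GFP-DB#1 (DB#1), 3 of B16F1-GFP-DB#2 (DB#2) and 3 of B16F1-GFP-DB#3 (DB#3). All 14 samples were total RNA of cells grown in DMEM with 10% FBS, and the labels name no further treatment. B16F1 is a mouse melanoma line, here marked with green fluorescent protein. In the study, dormant cells came from mice under an immunotherapy protocol: D is a first-generation dormant line, and the DB lines are a second generation taken from a brain site. All were amplified in vitro and frozen before RNA was taken. Each DB line is 1 line, so that site, generation and passage in culture cannot be told apart in the comparison with D. The parental line B16F1-GFP-M (M, 3 arrays) is given as a reference level. The labels do not say whether replicates came from separate cultures, so p-values measure only the spread between these samples.

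Dormant tumour cells persist for long periods without forming a growing mass, and cells that leave dormancy may do so at a distant site. Melanoma has a known tendency to spread to the brain, where cells meet vessels, glia and neurons in place of skin. A difference from D that recurs in lines taken from that site is a description of what the lines share in culture, after they have left it.

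Each value was the log2 intensity of a probe less the 75th percentile of its array, called the normalized log2 signal. A value of 0 is therefore the level of the 75th percentile probe, and a difference of 1 is a doubling. Values of different genes come from different probes and were not set against each other. By its share of probes above background, 1 array stood apart before any comparison. On D replicate 3, 89.9% of probes were well above background, against 43.6% to 53.8% on the other 13 arrays, and its 75th percentile intensity was 574 against 304 to 460. The lowest of the other shares was that of D replicate 1. All 10 melanocyte and melanoma markers, Mlana, Dct and Pmel among them, were well above background on all 14 arrays. The mean level of these markers was lowest on D replicate 3, at 5.85 against 6.36 to 6.93 on the other 13 arrays. Of 10 neuron markers, 9 were above background on D replicate 3 and 2 (Snap25 and Map2) on each of the other 13 arrays. Their mean level was -2.08 on D replicate 3 and between -5.17 and -4.54 elsewhere. Blood cell markers were above background for 11 of 12 on that array and for 4 to 6 elsewhere. The lists of astrocyte, oligodendrocyte, microglia, endothelial and fibroblast markers were all higher there too, as was a list of 5 sex-linked genes, of which 4 (Xist and 3 Y-linked genes) were above background there and none elsewhere. Their part in the results was not tested, and the main results are given with and without D replicate 3.

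Sequences of 3 genes named in the results are shown first. They are promoter windows of the RefSeq annotation of build GRCm38.p6, from 250 bases before to 50 bases after the start of the gene. Crb2 and Batf were higher in all 3 DB lines, and Oas1a was higher in all 3 but mainly in DB#2; they were chosen after their values were seen. Capitals mark matches, on either strand, to CATGTG (the core of the M-box, read by the pigment cell factor MITF) or to GAAA, any 2 bases and GAAA again (an ISRE-like element of interferon-responsive genes). TGANTCA, the AP-1 site, was searched too and had no match in these 3 windows. Overlapping matches were counted.
Crb2 promoter, chr2:37775999-37776298, plus strand: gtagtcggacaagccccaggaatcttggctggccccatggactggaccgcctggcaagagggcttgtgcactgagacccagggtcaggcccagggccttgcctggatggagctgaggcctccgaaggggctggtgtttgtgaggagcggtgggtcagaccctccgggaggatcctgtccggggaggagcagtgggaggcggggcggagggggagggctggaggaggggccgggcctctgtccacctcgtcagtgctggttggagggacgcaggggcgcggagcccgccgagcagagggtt
Batf promoter, chr12:85686470-85686769, plus strand: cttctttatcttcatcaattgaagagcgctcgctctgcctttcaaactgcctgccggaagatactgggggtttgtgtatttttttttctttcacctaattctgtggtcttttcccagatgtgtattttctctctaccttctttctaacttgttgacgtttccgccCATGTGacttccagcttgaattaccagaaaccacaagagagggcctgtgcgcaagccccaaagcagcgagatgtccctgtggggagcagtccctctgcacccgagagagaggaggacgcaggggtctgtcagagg
Oas1a promoter, chr5:120907476-120907775, minus strand: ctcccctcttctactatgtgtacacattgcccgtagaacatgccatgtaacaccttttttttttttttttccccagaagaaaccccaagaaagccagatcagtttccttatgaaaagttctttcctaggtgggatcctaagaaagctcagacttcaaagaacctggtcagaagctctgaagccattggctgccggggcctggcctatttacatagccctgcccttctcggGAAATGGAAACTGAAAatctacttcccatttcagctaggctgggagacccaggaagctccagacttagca
The Batf window held 1 CATGTG, 85 bases before the start. The Oas1a window held 2 overlapping ISRE-like matches, 20 and 14 bases before the start, and the Crb2 window held none of the 3 motifs. Over the windows of all tested genes that had one, 8.9% held CATGTG, 2.94% the ISRE-like element and 5.14% TGANTCA. Of 91 windows of 73 genes that were higher in the DB lines with and without D replicate 3, 11 held CATGTG, 7 the ISRE-like element and 7 TGANTCA. Of 28 windows of 19 lower genes, 2 held CATGTG, 0 the ISRE-like element and 3 TGANTCA. A match is a description of the letters in a window.

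The question of this comparison was which genes differed from D in the same direction in all 3 brain-derived lines. Among the 21295 genes tested, 151 rose (0.709%) and 58 fell (0.272%). These passed an adjusted p of 0.05 for the equal-weight mean of the 3 lines against D in limma, with a difference of 1 sign in every line. A further 49 genes passed for the mean but not in 1 direction, and 54.9% of all tested genes had 1 sign in the 3 differences, which share the D arrays. The calls were mostly of rises, 72.2% of them, but this split depended on the scaling, at 85.0% with quantile normalization and 52.9% with no scaling. Without D replicate 3, 173 genes rose (0.812%) and 58 fell (0.272%), and 107 and 38 of them were called in both fits. With the spread taken from the 14 arrays of D and the DB lines alone, 117 rose and 38 fell. The arrays lay on 3 slides, and with the slide as a block 279 rose and 82 fell. Within the slides the mean difference kept its direction for 151, 149 and 151 of the 151 higher genes and for 58 of the 58 lower genes on each slide. All 3 lines kept it for 135, 129 and 139 of the higher genes and for 45, 47 and 50 of the lower genes. The genes were called on these same arrays, so the counts within slides are a description. Only 57 of the higher and 9 of the lower genes had all 10 DB arrays on one side of all 4 D arrays, an arrangement found for 0.512% of all tested genes.

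**Figure D1:**
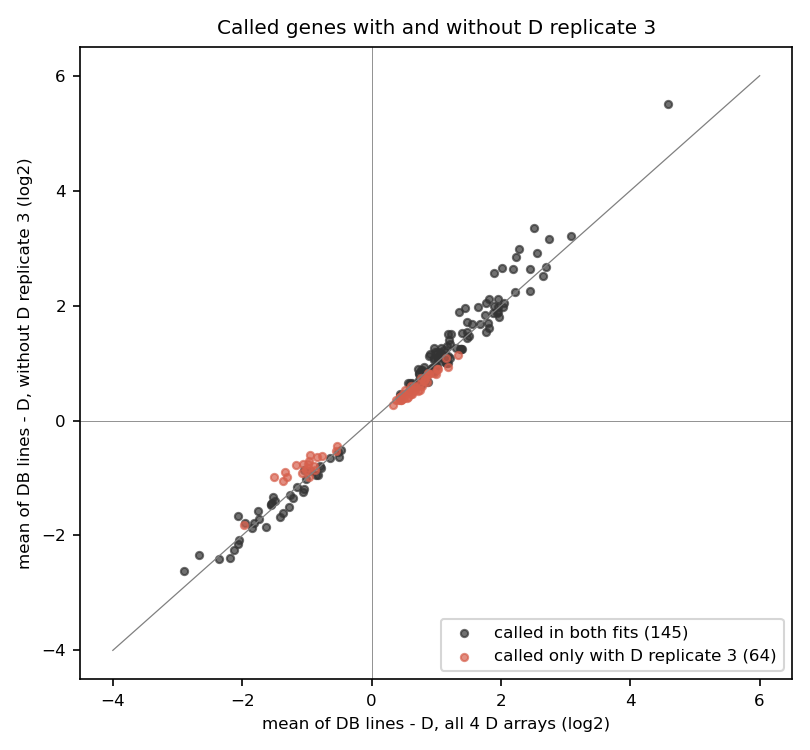
Mean difference of the DB lines from D on the log2 scale, with all 4 D arrays (horizontal) and without D replicate 3 (vertical), for the genes called with 1 sign. Each point is 1 gene, black where called in both fits (107 higher and 38 lower) and red where called only with D replicate 3, and the grey diagonal marks equal values.

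The 3 lines did not contribute evenly. DB#2 had the largest difference of the 3 lines for 124 of the 151 higher and 52 of the 58 lower genes. The median difference of the higher genes was 0.65 in DB#1, 1.54 in DB#2 and 0.64 in DB#3. That of the lower genes was -0.61, -2.10 and -0.77. Taken alone against D, DB#2 passed the threshold for 139 of the 151 higher genes, DB#1 for 43 and DB#3 for 32. Among the lower genes these counts were 53, 4 and 6. An F test among the 3 DB lines in limma was past the threshold for 84 of the 151 and 36 of the 58, against 4.88% of all tested genes. A fit of the mean of DB#1 and DB#3 without DB#2 called 67 higher and 30 lower genes, among them 50 of the 151 and 7 of the 58. These sizes describe genes chosen by the mean of the same lines.

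**Figure D2:**
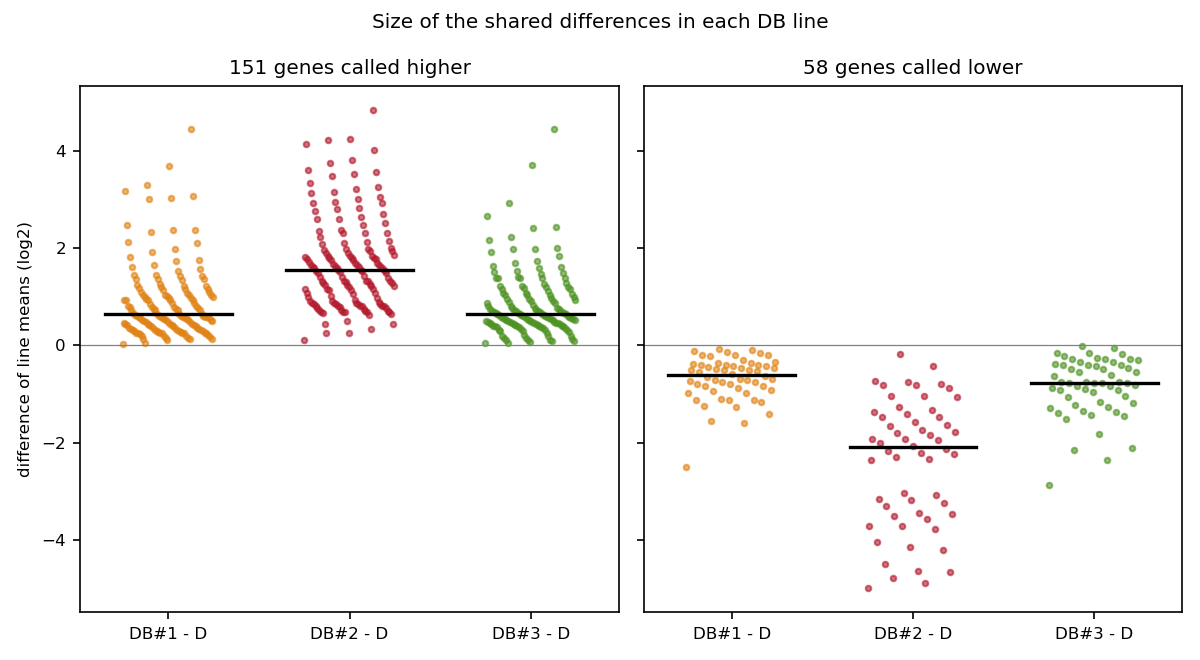
Difference of each DB line from D on the log2 scale for the 151 genes called higher (left) and the 58 called lower (right). Each point is 1 gene, spread sideways for visibility, and the black bar is the median, which lies at 1.54 for DB#2 and at 0.65 and 0.64 for DB#1 and DB#3 among the higher genes.

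A stricter reading asked for genes in which every DB line was past the threshold by itself, the largest of the 3 p-values being adjusted over all genes. It was met by 9 genes (0.0423%), all higher in the DB lines, and by no lower gene. At an unadjusted p under 0.05 in every line, 116 genes were higher and 58 lower. Without D replicate 3 the count was 17 (0.0798%), 8 of them among the 9, and Pla2g5 was the gene that dropped out (adjusted p = 0.0804 in limma). The 9 were Crb2, Batf, Ldhd, Gstk1, Mfsd13a, Arhgap45, Arhgdib, Pla2g5 and an RNA known only by its accession, XR_388001.

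Crb2, a membrane protein of the Crumbs family that sets apical polarity in epithelia, had the smallest adjusted p. Its normalized log2 signal was -4.07, -4.87, -3.88 and -4.12 on the D arrays. It was -0.47, -0.60, -0.33 and -0.76 in DB#1, -1.10, -0.95 and -1.23 in DB#2, and -1.66, -1.99 and -1.75 in DB#3. Every DB array lay above every D array, and only D replicates 3 and 4 were well above background. The mean difference was 3.09 ± 0.15 (SE, 10 DB and 4 D arrays), an 8.51-fold rise (limma adjusted p = 1.58e-10). With 2 of the 4 D arrays at background, the size of this difference is uncertain, and the gene was tested because the DB lines were above background. The lines differed among themselves, in the order DB#1, DB#2 and DB#3, with DB#1 above DB#3 by 1.26 (95% interval 0.86 to 1.66). In M it was not well above background on any array.

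Batf, an AP-1 family transcription factor that pairs with Jun proteins, rose by nearly the same amount in the 3 lines. It read -0.93, -0.89, -1.24 and -1.05 in D. It read 0.74, 0.94, 1.27 and 0.90 in DB#1, 0.75, 0.90 and 0.83 in DB#2, and 0.78, 0.89 and 1.25 in DB#3. The 3 lines overlapped each other and none overlapped D. The differences from D were 1.99, 1.85 and 2.00, and their mean was 1.95 ± 0.13 (SE), a 3.85-fold rise (limma adjusted p = 2.85e-08). DB#1 and DB#3 differed by -0.01 (95% interval -0.36 to 0.34). The M arrays, at -1.77 to -1.47, lay below D.

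Gstk1, a kappa-class glutathione transferase of mitochondria and peroxisomes, was similarly even. D arrays ranged from 0.85 to 1.62 and the 3 DB lines had means of 2.65, 2.72 and 2.68. The mean difference was 1.39 ± 0.17 (SE; limma adjusted p = 7.15e-05), and the 95% intervals of the differences between DB lines all lay within -0.49 to 0.54. Arhgdib rose by 1.00, 1.29 and 1.20 from a D mean of 5.20 ± 0.36 (SD, n = 4). Mfsd13a, a predicted membrane transporter, rose by 1.07, 1.49 and 1.52. Its M level was 0.60 ± 0.13 (SD, n = 3), above all 3 DB lines, so that D was the low line.

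Ldhd, the mitochondrial D-lactate dehydrogenase, was -0.58, -1.50, -1.41 and -1.50 in D. It was 0.64, 0.13, 0.10 and -0.12 in DB#1, 1.67, 1.77 and 1.84 in DB#2, and 0.69, 0.30 and 0.20 in DB#3. No DB array overlapped D, DB#1 and DB#3 overlapped each other, and DB#2 was above the other DB lines (F test among DB lines, limma adjusted p = 8.58e-05). The mean rise was 2.03 ± 0.16 (SE), 4.07-fold. M lay far lower, at -3.66 ± 0.17 (SD, n = 3). Arhgap45 had the opposite order. It rose by 3.04 in DB#1, 1.33 in DB#2 and 1.47 in DB#3, from D arrays that lay between -1.86 and -1.64.

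Pla2g5, a secreted phospholipase A2, led the genes measured well above background on all 14 arrays by its smallest line difference. It was -1.38, -1.87, -2.19 and -1.80 in D. It was 0.65, 0.75, 0.63 and 0.63 in DB#1, 1.51, 1.90 and 1.63 in DB#2, and -0.28, 0.36 and 0.44 in DB#3. All DB arrays lay above all D arrays, with DB#2 highest. The mean rise was 2.65 ± 0.27 (SE), 6.27-fold (limma adjusted p = 6.67e-06). A second probe of the gene gave a mean difference of 0.82. XR_388001 was not well above background on D replicates 1, 2 and 4 or in M, and was above it on all DB arrays. Against those 3 D arrays it was at least 11.7-fold higher in DB#1, 15.5-fold in DB#2 and 11.8-fold in DB#3. On D replicate 3 it read -2.23, still below the lowest DB array at -0.76. It was tested because the DB lines were above background, so its call rests on D values mostly at background.

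**Figure D3:**
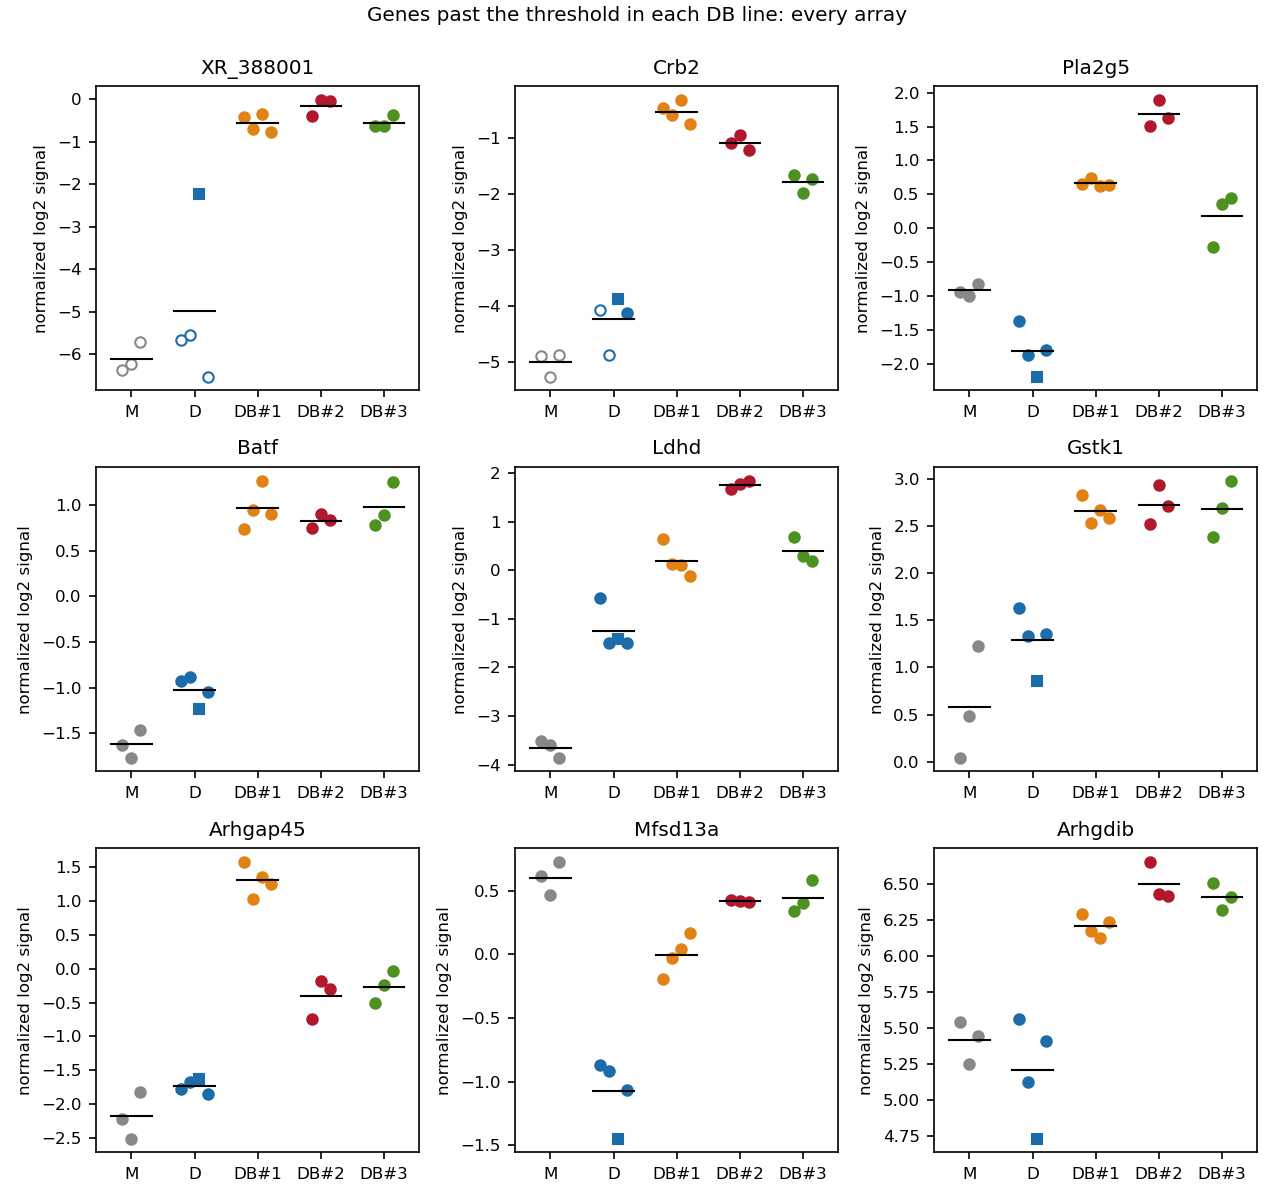
Normalized log2 signal of the 9 genes past the threshold in each DB line, 1 panel per gene with its own vertical scale. Each point is 1 array (open where not well above background, square for D replicate 3) and the bar is the line mean; in all 9 panels every DB array lies above every D array.

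The remaining genes of the 10 with the largest smallest-line rise were 5033406O09Rik, Slc25a34, Fabp3, Fhod3, Kcnn4, Fstl1 and Cd72. Each was well above background on all 14 arrays, and each had all DB arrays above all D arrays, as the rule for naming them required. Fabp3, a carrier of fatty acids in the cytosol, rose by 2.10, 1.64 and 1.92 in DB#1, DB#2 and DB#3 (limma adjusted p = 0.00394 for the mean). Slc25a34, a member of the mitochondrial carrier family, rose by 1.77, 2.92 and 1.97, but its second probe gave a mean difference of -0.02. Kcnn4, a calcium-activated potassium channel, rose by 2.13, 1.84 and 1.49. It lost its call when the 3 probes of the gene were averaged (limma adjusted p = 0.0557). Fstl1, a secreted follistatin-like glycoprotein, rose by 1.44, 1.66 and 1.40 (limma adjusted p = 0.0117). Fhod3, a formin that assembles actin filaments, rose by 1.61, 2.76 and 1.52. Cd72, a cell surface receptor best known from B cells, rose by 3.18, 2.81 and 1.38, with D replicate 1 at -0.81 and the other D arrays at -2.54 to -1.92. 5033406O09Rik rose by 3.01, 2.48 and 1.85.

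Several of these genes had been higher in D than in M, and the DB lines lay further in the same direction. M arrays were at -5.27 to -3.35 for Fabp3, where D ranged from -1.84 to -1.14 and the DB arrays from 0.13 to 0.73. For 5033406O09Rik M lay at -5.10 to -3.84 and D at -2.45 to -1.17. For either gene only 1 of the 3 M arrays was well above background, so these M levels are near background. Pla2g5, Slc25a34 and Fhod3 went the other way. Their M means of -0.92, -0.94 and -1.90 lay above their D means of -1.81, -1.22 and -2.57. Of the 107 higher genes called in both fits, 55 had the M mean below the D mean, 35 had it between D and the mean of the DB lines, and 17 had it above the DB lines. Of the 38 lower genes, 2 had the M mean above D, 19 had it between D and the DB lines, and 17 had it below the DB lines. These counts rest on the same D arrays as the calls and are a description.

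Another 3 genes were on all 10 DB arrays well above background and on none of D replicates 1, 2 and 4, while D replicate 3 was above it and lay close to the DB arrays. They were C1ql3, a secreted C1q-like protein, Enpep, an aminopeptidase that cleaves angiotensin II, and Rab19, a small GTPase. Against the 3 dim D arrays, C1ql3 was at least 6.86-fold higher in DB#1, 1.94-fold in DB#2 and 2.73-fold in DB#3. Enpep was at least 1.90-fold, 2.80-fold and 1.70-fold higher in the same order. Rab19 was at least 4.89-fold, 1.08-fold and 2.62-fold higher. Within the slide that held D replicate 3, the mean differences of the 3 genes were 0.02, 0.20 and 0.03, whereas on the other slides they were between 2.40 and 3.72. Each bound was taken from the lowest signal called well above background on each array. The 3 genes were tested because the DB lines were above background, so their calls rest on D values mostly at background.

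The shared falls were fewer and rested more on DB#2. Of the 26 lower genes with a symbol that were called in both fits, Gmfg alone met the rule of full separation with signal on all 14 arrays. Gmfg, which promotes the loss of actin branches, was -0.97, -2.57, -2.78 and -2.60 in D. It was -3.26 to -2.83 in the 4 arrays of DB#1, -3.46, -3.52 and -3.70 in DB#2, and -3.37, -3.43 and -3.05 in DB#3. The DB arrays lay below every D array, but the nearest pair was close, with D replicate 3 at -2.78 and a DB#1 array at -2.83, and D replicate 1 stood far above the rest. The mean difference was -1.06 ± 0.23 (SE; limma adjusted p = 0.022). The call was lost with quantile normalization (-0.24, limma adjusted p = 0.892) and with normexp background correction (-0.53, adjusted p = 0.199).

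Celsr1, an atypical cadherin of planar cell polarity, was well above background on all 4 D arrays and on no DB array. It was tested because D was above background, so its call rests on DB values at background. Against D replicates 1, 2 and 4 it was at least 1.62-fold lower in DB#1, 1.75-fold in DB#2 and 1.56-fold in DB#3. Its call was lost with quantile normalization and with normexp (limma adjusted p = 0.414 and 0.336). An RNA known only by its accession, AK038744, was likewise on in D and not above background in any DB array. It too was tested because D was above background, and against the same D arrays it was at least 1.88-fold to 2.11-fold lower. It is named here after its values were seen. Most other falls were large in DB#2 and small elsewhere. Cx3cl1, the membrane-bound chemokine fractalkine, was -1.47 to -0.60 in D, -2.16 to -1.74 in DB#1 and -1.81 to -1.56 in DB#3. It was above background on no DB#2 array, at least 10.2-fold lower there than the mean of all 4 D arrays. Taken alone, DB#1 and DB#3 did not pass for Cx3cl1 (limma adjusted p = 0.432 and 0.999).

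**Figure D4:**
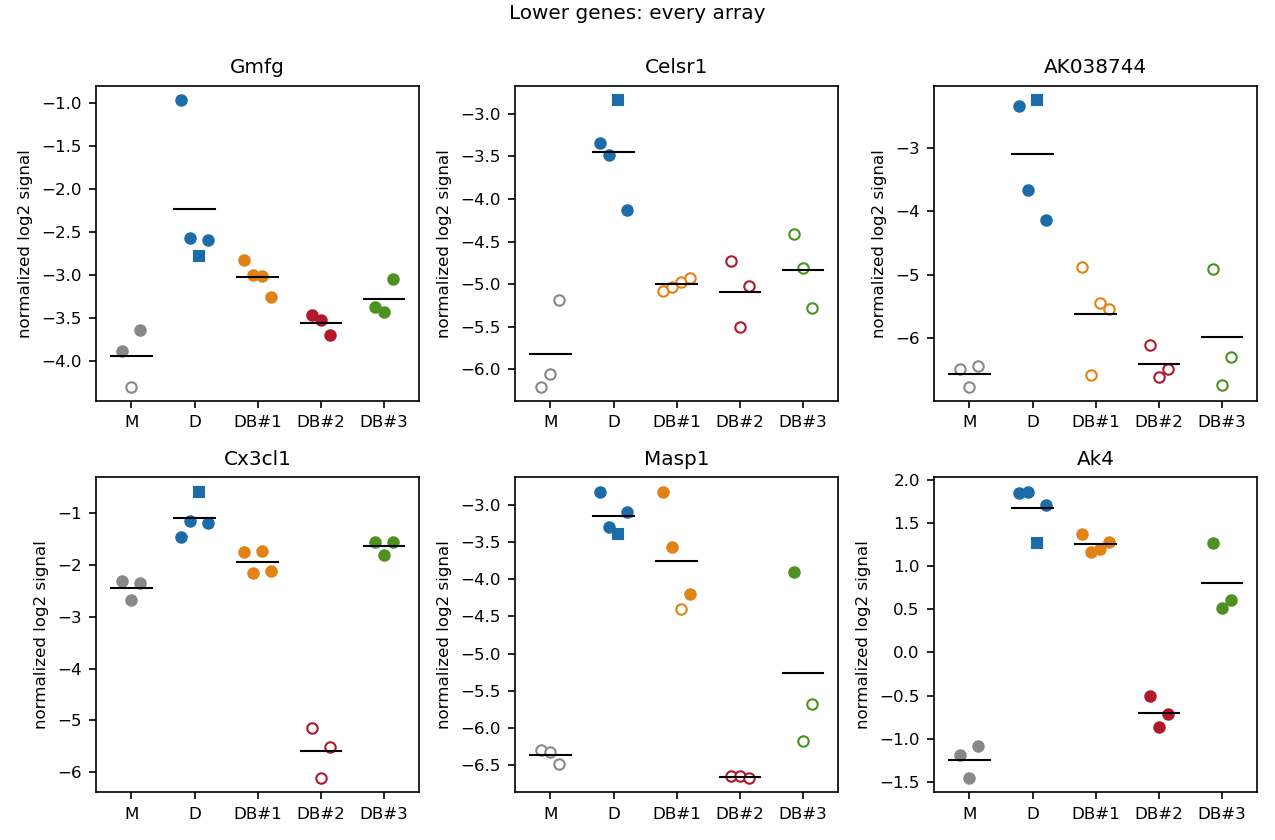
Normalized log2 signal of 6 lower genes in M, D and the DB lines, 1 panel per gene with its own vertical scale. Each point is 1 array (open where not well above background, square for D replicate 3) and the bar is the line mean; Celsr1 and AK038744 have filled points in D and open points in every DB array, whereas Cx3cl1 has open points in DB#2 alone among the DB lines.

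No gene list had more than a few members called. In the 40-gene list of interferon-stimulated genes, 3 of 36 tested genes rose, against 0.709% of all tested genes, and none fell. Its median difference was 0.50, against 0.04 over all tested genes. The line medians were 0.07 in DB#1, 1.44 in DB#2 and -0.08 in DB#3. Oas1a, which makes the oligoadenylates that activate RNase L, was 1.76, 0.54, -0.04 and 0.37 in D, 1.56 to 2.00 in DB#1, 3.96 to 4.43 in DB#2 and 1.20 to 1.37 in DB#3. D replicate 1 lay among the DB#1 arrays and above those of DB#3. The M arrays, at 2.43 to 2.95, lay above D, DB#1 and DB#3. Trim25, a ubiquitin ligase of the RIG-I pathway, was called for the mean (limma adjusted p = 0.0049), with differences of 0.20, 1.78 and 0.43. Its M mean was 3.56, against 2.62 in D, 2.82 in DB#1, 4.41 in DB#2 and 3.06 in DB#3. Parp12, an antiviral ADP-ribosyltransferase, was called with all arrays and not without D replicate 3 (limma adjusted p = 0.0235 and 0.099). The interferon median of DB#1 and DB#3 without DB#2 was -0.01.

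The hypoxia response list had the lowest median, -0.19, and -0.39 without D replicate 3. All 3 lines were below D for 10 of 18 tested genes and above D for none, and without D replicate 3 they were below D for 14. Over all tested genes 21.7% had all 3 lines below D, and 27.9% without D replicate 3. Ak4, a mitochondrial adenylate kinase induced by hypoxia, was the 1 gene called. It was 1.84, 1.86, 1.27 and 1.71 in D, 1.16 to 1.37 in DB#1, -0.87 to -0.51 in DB#2 and 0.51 to 1.27 in DB#3. D replicate 3 overlapped DB#1 and DB#3. Without DB#2 in the mean the call was lost. Its mean difference was -1.22 ± 0.24 (SE; limma adjusted p = 0.00802). Bnip3, Adm and Ddit4, known hypoxia-responsive genes, had mean differences of -0.94, -0.74 and -0.66 that did not pass (limma adjusted p = 0.383, 0.273 and 0.351). Other lists also lay lower without D replicate 3. All 3 lines were then below D for 51.9% of the ATF4 amino acid stress genes, 50% of the p53 targets and 45% of the collagen folding genes. They were above D for 3.7%, 12.5% and 5%. With all arrays the shares below D were 22.2%, 25% and 10%.

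The oxidative phosphorylation list turned on 1 array. With all D arrays, 42 of 47 tested genes were above D in all 3 lines, as were 33.3% of all tested genes, and the median was 0.22. Without D replicate 3 the count was 14 (29.8% of the list, against 28.0% of all tested genes) and the median 0.05, and no gene of the list was called in either fit. Of the lysosome list, 24 of 45 genes (53.3%) were above D in all 3 lines with all arrays and 6 (13.3%) without D replicate 3, beside the same shares of all tested genes. Of the melanin and melanosome genes, 0 of 18 were called, and of the axon guidance and neural adhesion genes 0 of 42. Over all tested genes 0.709% were called higher and 0.272% lower, so that nothing is read from a count of 0 in lists of this size.

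In the smaller lists, single genes carried the calls. Cfi, the protease that inactivates complement C3b and C4b, was at least 1.97-fold higher in DB#1 and 10.5-fold in DB#2 than in D replicates 1, 2 and 4. DB#3 was not above background, and the gene was tested because DB#1 and DB#2 were. D replicate 3 was above background for Cfi, at -3.58, higher than the DB#3 arrays at -4.59 to -4.04. Taken alone, DB#3 differed from D by 0.55 and did not pass (limma adjusted p = 0.999). Masp1, a protease of the lectin pathway of complement, was lower for the mean of the lines (-2.07, limma adjusted p = 0.000403), a call lost with quantile normalization and with normexp (limma adjusted p = 0.283 and 0.172). The size of this difference is uncertain, since most DB#2 and DB#3 arrays were at background and the gene was tested because D was above it. Masp1 was at least 2.47-fold lower in DB#2 than the mean of all 4 D arrays. Of DB#1, 3 of the 4 arrays were above background, as was 1 DB#3 array, and DB#1 overlapped D. Emilin1, an elastic fibre glycoprotein, rose by 0.93, 1.40 and 0.70 (limma adjusted p = 0.0014 for the mean), and kept its call under every alternative run. It was not above background in M. In the remaining lists, Gja1, a gap junction protein, and Ldhb, a lactate dehydrogenase subunit, were called with all arrays (mean differences of 1.02 and 0.71). For both, DB#2 had by far the largest difference (2.61 and 1.52). With D replicate 3 left out, the DB#1 differences of Gja1 and Ldhb changed sign (-0.10 and -0.09).

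**Figure D5:**
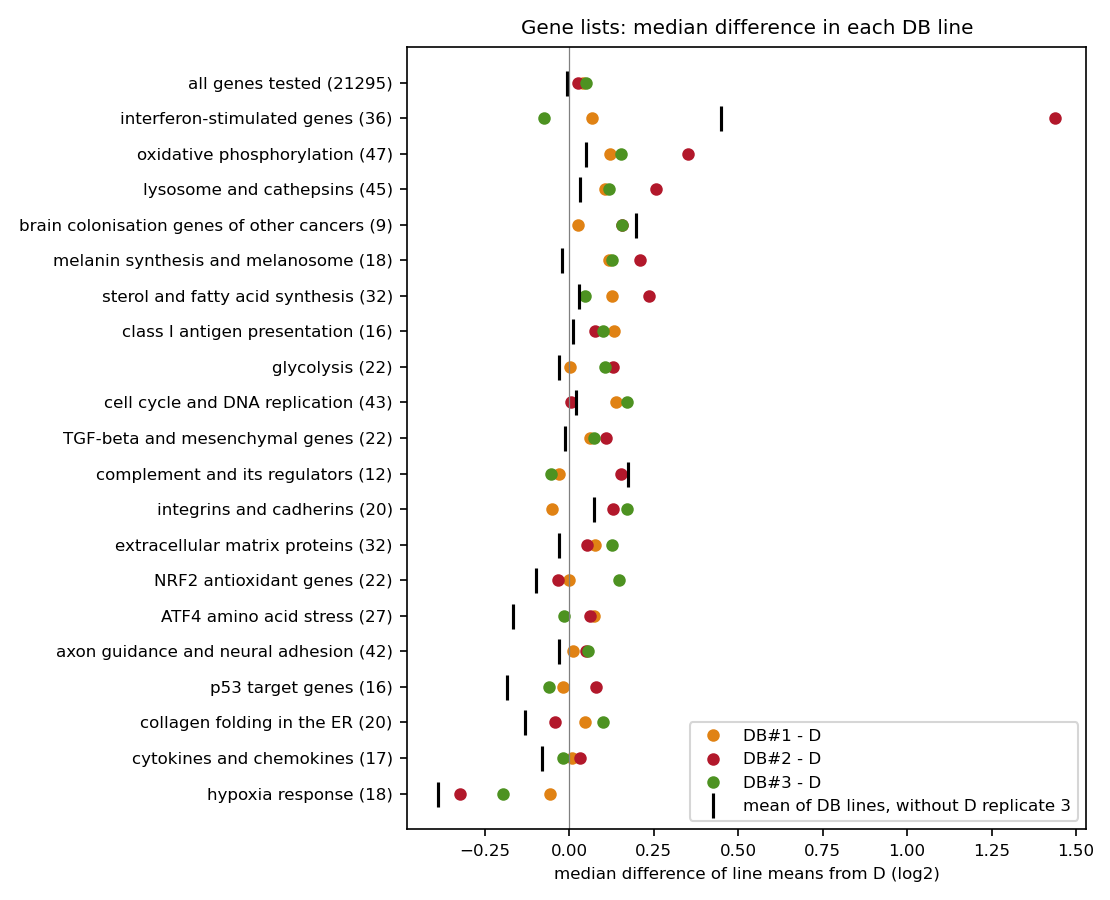
Median difference from D on the log2 scale of each gene list in DB#1, DB#2 and DB#3 (coloured points), and of the mean of the 3 lines without D replicate 3 (black ticks); the number of genes tested is in brackets. The interferon list stands at 1.44 in DB#2 and near 0 in the other lines, and the hypoxia list lies below 0 in all 3.

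By chromosome, the 94 higher genes with a symbol called in both fits were spread over 19 of the 20 chromosomes. Chromosomes 4 and 6 held 10 each, which is 10.6% of the 94, while these chromosomes held 6.46% and 4.96% of the tested genes. Pla2g5, Slc25a34, Fabp3 and Cd72 all lie on chromosome 4. The median difference over all genes of chromosome 4 was 0.05 in DB#1, 0.17 in DB#2 and 0.07 in DB#3. That of chromosome 6 was 0.06, 0.14 and 0.07 in the same order. Chromosome 10, which held 5 of the 94 genes, had medians of 0.04, 0.39 and 0.06. Of the tested genes of chromosomes 4 and 6, 1.18% and 1.53% were among the 94, against 0.714% over all chromosomes. Whether chromosome position bears on these differences was not tested.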

How the data were processed

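Total RNA of 7 lines was measured on 24 Agilent single-colour mouse arrays, 8 per slide. The authors extracted the scans with Agilent Feature Extraction 10.7.3.1; the deposited intensity (gProcessedSignal, linear, background-corrected) had not been scaled between arrays. No array pair was identical (0 pairs). Outlier spots were left out, spots of a probe averaged (56488 of 56605 probes kept), and log2 intensity less the 75th percentile of the array was used. The brightest probe stood for a gene, and 32917 probes had a RefSeq symbol. Genes that the scanner software called well above background throughout D or a DB line were tested in R 4.3.3 with limma 3.58.1 (lmFit, eBayes, Benjamini-Hochberg) on all 24 arrays, 1 term per line (17 residual degrees of freedom). normexp used the median signal, since the mean signal is not among the columns. The number of arrays limits the precision. The fits were tested on simulated data.

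Members and lists were chosen with earlier results of these data known. Named genes were the 10 in each direction with the largest smallest-line difference among those called in both fits, above background on all 14 arrays and fully separated; up to 4 per direction on in one side and not in the other; and called list members, 1 of which is not reported here. The 9 genes past the threshold in each line and the sequences shown were added after their values were seen. Alternatives covered scaling, background, filter, probes, blocks, weights, lines in the mean and each array left out.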

Additional observations from a re-analysis of the deposited data

Results flagged for a closer look

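Among 44 combinations of a named gene with D or DB#1, the lines with 4 arrays, 4 had 1 array far from the other 3, and chance alone gives about 1 in 20. D replicate 1 was that array for Ldhd (-0.58) and for Gmfg (-0.97), on the side of the DB lines for Ldhd and away from them for Gmfg. DB#1 replicate 1 was high for Fstl1 (1.78) and DB#1 replicate 2 for Pla2g5 (0.75).

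For 11 of the 22 named genes the 3 DB lines, although of 1 sign against D, differed among themselves by limma's F test. The adjusted p was 0.0406 for Pla2g5, 0.0238 for Fhod3, 8.58e-05 for Ldhd, 0.0014 for Cd72 and 0.0335 for Rab19. It was 0.000742 for Ak4, 0.000189 for Cfi, 1.47e-08 for Cx3cl1, 0.000116 for Masp1, 1.9e-06 for Oas1a and 2.32e-05 for Trim25. DB#2 was the line farthest from D for Pla2g5, Fhod3, Ldhd, Ak4, Cfi, Cx3cl1, Masp1, Oas1a and Trim25, and DB#1 for Cd72 and Rab19.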

How the results depend on the processing

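Main counts were 151 higher and 58 lower genes, and no named gene changed direction under any alternative. Higher genes numbered 244 with quantile normalization, 83 with no scaling, 279 with the slide as a block and 268 with array weights. The lower genes numbered 31 with normexp, 124 with no filter on dim probes, 24 with the filter on all 14 arrays, 38 with the 14 arrays only and 134 with array weights. With DB#2 and DB#3 in the mean there were 254 and 118, with DB#1 and DB#2 251 and 133, and with DB#1 and DB#3 67 and 30. With every line past the threshold there were 9 and 0. Leaving out 1 array gave 108 to 323 higher and 40 to 160 lower, and both highest counts came from leaving out D replicate 1. Without D replicate 3, normexp gave 94 and 36, against 173 and 58.

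Differences among DB lines were called for 1039 genes, for 657 with no filter, 1704 with the slide as a block, 4653 with array weights and 587 to 1396 with 1 array left out; the 3 lowest, 587, 623 and 688, came from leaving out a DB#2 array. The 9 genes past the threshold in each line became 16 with quantile normalization, 16 with normexp, 5 with no filter, 30 with array weights and 5 to 17 with 1 array left out (settings added after seeing the data). D replicate 3 gave 17, D replicate 1 gave 16 and D replicate 2 gave 5. Of these settings, Batf passed in 25 of 25, Crb2 in 24 of 24, Ldhd and Mfsd13a in 24 of 25, XR_388001 in 22 of 24, Arhgdib in 19 of 25, Gstk1 in 18, Arhgap45 in 13 and Pla2g5 in 8.

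As a replicate block, the replicate number gave 159 higher and 105 lower genes, and 5 past the threshold in each line. The numbers do not pair the samples: same-numbered arrays of different lines correlated at -0.80 to 0.85 in their deviations from the line mean, and 1 of 14 arrays correlated best with its own number. Arrays on the same slide correlated at 0.096 to 0.92.

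Of the values of named genes under alternatives, 609 stayed past the threshold, 22 did not, and none changed direction. Without DB#2 in the mean, Ak4, Cfi, Cx3cl1, Masp1, Oas1a, Trim25, Slc25a34, Fstl1 and Gmfg were not past it. Celsr1, Masp1 and Gmfg were not past it with quantile normalization or normexp, C1ql3, Enpep and Gmfg with the 14 arrays only, C1ql3 with DB#2 and DB#3 in the mean, Gmfg with no filter, Fstl1 with no scaling and Kcnn4 with its probes averaged. The interferon list median ranged from -0.01 without DB#2 to 0.75 without DB#3. Levels near background limit the dim genes, for which differences are bounds.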

Other observations

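Some further higher genes called in both fits, held by no list, are given by their values. They were picked after those values were seen. Palld, an actin-bundling protein, differed from D by 1.16 in DB#1, 2.24 in DB#2 and 1.03 in DB#3. Cyfip2, a subunit of the WAVE complex, differed by 0.65, 0.74 and 0.68.

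Igf2bp3, an RNA-binding protein of fetal tissue, differed by 1.36, 1.95 and 0.62. Epas1, the oxygen-regulated factor HIF-2 alpha, differed by 0.75, 0.50 and 1.12, upward while the hypoxia list as a whole lay below D. Cort, the neuropeptide precursor cortistatin, was -0.53 to 0.29 in D, 1.03 to 1.85 in DB#1, 1.53 to 2.04 in DB#2 and 0.86 to 1.56 in DB#3, and 0.77 to 1.43 in M.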
